A study of Mus musculus with 6 samples.

Results

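The genes of sterol and fatty acid synthesis that are governed by the sterol regulatory element-binding proteins (SREBPs) were examined in mouse embryonic fibroblasts (MEFs) that overexpress Fbxl10. The set was drawn up from pathway knowledge, with earlier results of these data known, and held 37 genes. They were the enzymes of cholesterol synthesis in pathway order, the SREBP regulators, proteins of sterol transport, the liver X receptor (LXR) arm, and the enzymes of fatty acid synthesis. Where several probe sets named a gene and no other, the brightest on average stood for it, which gave values for 35 of the 37 members among 19936 genes in all. Acat2 and Nr1h2 had no such probe set here and were not analysed. Both groups came from a stable MEF-derived Tet-off line, whose tetracycline-controlled transactivator the controls share. The control group was 3 RNA samples of that line without transfection. The other group was 3 RNA samples of Tet-off HA-Fbxl10 cells, which had received an HA-tagged Fbxl10 cDNA together with a hygromycin resistance plasmid and were selected as clones for expression of the tagged protein. The sources used here do not give how many clones were sampled, how the cells were cultured at harvest or whether tetracycline was used. A control with empty plasmid and hygromycin selection was not among the samples, so Fbxl10, transfection, drug selection and clone cannot be told apart. Nothing states that the RNA samples came from separate cultures, so a p-value here reflects scatter among RNA samples that could be purely technical.

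Cholesterol is built from acetyl-CoA through mevalonate, the isoprenoid diphosphates, squalene and lanosterol. SREBP2 mainly drives the genes of this route and SREBP1 mainly those of fatty acid synthesis. Both precursors are held in the endoplasmic reticulum by Scap and the Insig proteins while sterols are plentiful, and are cut to active factors in the Golgi when sterols run low. LXRs are nuclear receptors for oxysterols that induce sterol efflux transporters and the Srebf1 gene, so they act when sterols are in excess.

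The arrays were even in quality, with medians of 4.69 to 4.79 on the log2 scale and Pearson correlations over all probe sets of 0.994 to 0.996 within groups and 0.990 to 0.992 between groups. Kdm2b, the current name of Fbxl10, was 5.03-fold higher in HA-Fbxl10 cells (limma adjusted p = 3.31e-07). Fibroblast markers were well measured, with 10 of 11 above the median level of all genes (5.36). Their mean log2 level was 10.09 to 10.16 on control arrays and 9.94 to 10.05 on HA-Fbxl10 arrays. Of these 11, Col3a1 (-0.79), S100a4 (-0.64) and Pdgfra (-0.30) fell and Lox (0.22) rose on the log2 scale. The calls of Col3a1 and S100a4 were kept in all 6 limma fits that left out 1 array. That of Pdgfra was kept in 2 of them and that of Lox in 0 (adjusted p of 0.0526 to 0.110). Of 9 fat cell markers all lay below that median, as did all 8 hepatocyte markers, 7 of 9 macrophage markers and 5 of 7 epithelial markers. Among these 3 lists Cd14, a macrophage marker, fell by 0.45 and Krt19, an epithelial keratin, rose from 9.07 ± 0.16 to 9.79 ± 0.02 (SD, n = 3 each), while limma called 0 of the hepatocyte list, of which 0 had an unadjusted p below 0.05. The Cd14 call was kept in 2 of the 6 fits without 1 array. The part of these marker changes in the results on the members was not tested. The defining fat cell genes Adipoq and Pparg had mean levels of 3.64 and 3.98 in control cells and 3.67 and 4.02 in HA-Fbxl10 cells, near the lower quartile of all genes (3.75). The mean level of the fat cell list was 4.26 to 4.37 on control arrays and 4.45 to 4.53 on HA-Fbxl10 arrays, with Lpl and Fabp4 higher and Retn lower, and its part in the fatty acid results below was not tested. The Retn call was kept in 2 of the 6 fits without 1 array, and those of Lpl and Fabp4 in all 6.

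Of the 35 measured members, 12 rose, 4 fell and 19 did not pass the test in HA-Fbxl10 cells (limma, Benjamini-Hochberg adjusted p under 0.05 over all genes). Over all genes 21.1% passed, 10.5% in the higher and 10.6% in the lower direction. Of the members, 32 lay above the median level, and among all genes above that level 19.2% were called higher and 17.8% lower. Of the 12 rises 8 were of cholesterol synthesis enzymes, where 17 were measured, 2 fell and 7 did not pass. Among the SREBP regulators 2 of 5 rose and 1 fell, and among the sterol transport genes 2 of 3 rose. In the LXR arm limma passed 0 of 4, of which 2 had an unadjusted p below 0.05. Among the 6 fatty acid synthesis genes 1 fell and 0 rose, and 2 of the other 5 had an unadjusted p below 0.05. The median log2 fold change was 0.25 for cholesterol synthesis, 0.25 for sterol transport, 0.01 for the regulators, 0.10 for the LXR arm and 0.06 for fatty acid synthesis, against -0.0043 over all genes. Without 1 array each, the LXR median ran from 0.06 (HA-Fbxl10 replicate 3 left out) to 0.16 (HA-Fbxl10 replicate 1) and the fatty acid median from 0.02 (control replicate 2) to 0.12 (control replicate 3). The difference between arms was not tested, and the list was drawn up with earlier results of these data known.

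**Figure D1:**
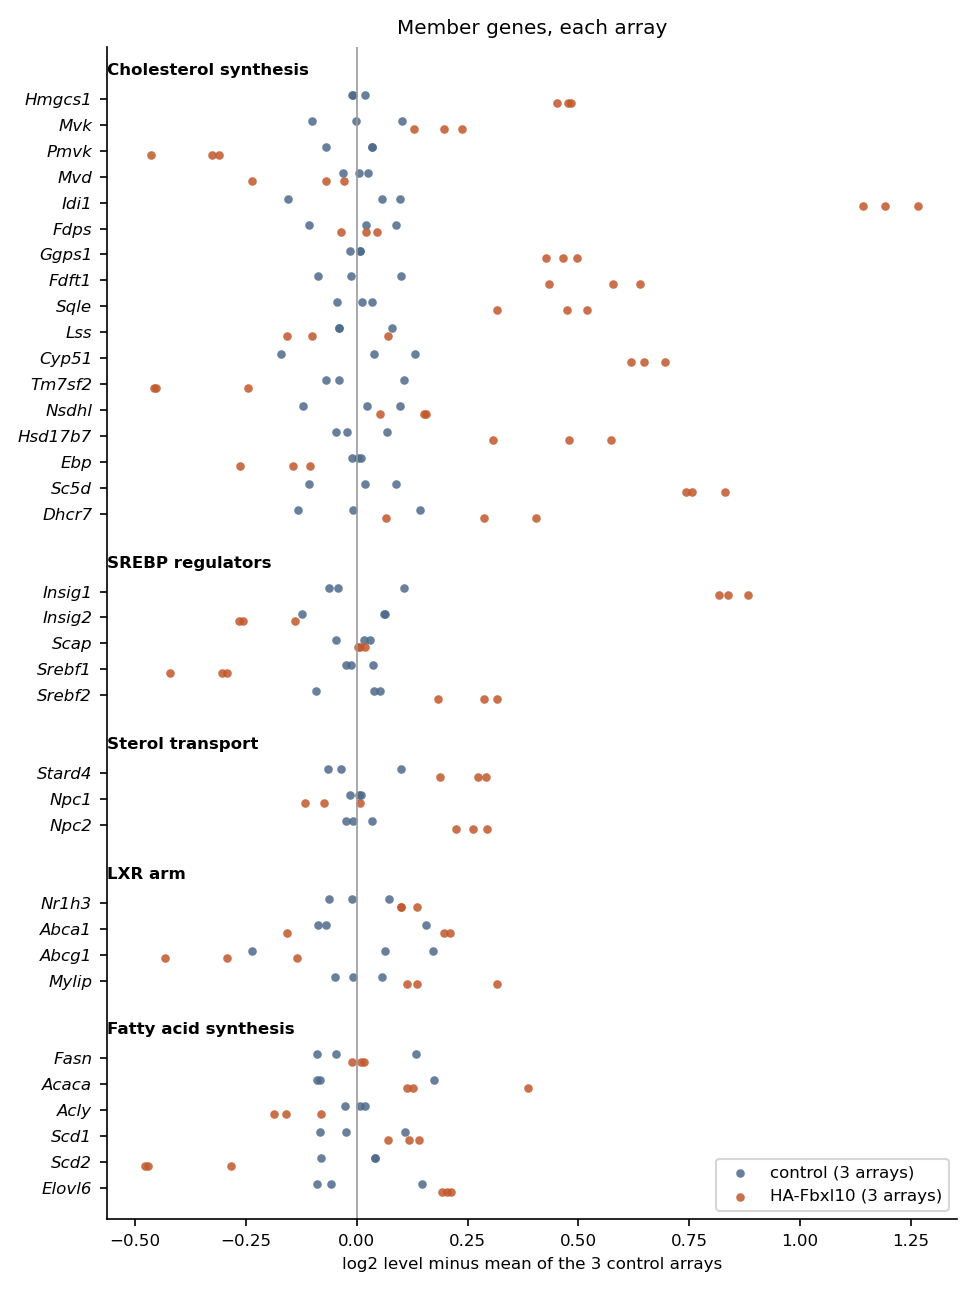
Log2 level of each measured member on each array, minus the mean of its 3 control arrays (x axis), with the genes grouped by arm (y axis); blue points are control arrays and orange points HA-Fbxl10 arrays. The HA-Fbxl10 arrays lie to the right of all control arrays for 9 of 17 cholesterol synthesis genes and to the left for 3. Over all genes they do so for 17.9% and 18.1%. All 17 genes lie above the median level, and the shares for such genes alone were not counted.

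Idi1, which interconverts the isoprenoid diphosphates IPP and DMAPP, had the largest change among the members. Its log2 levels were 7.73, 7.52 and 7.77 on the control arrays and 8.87, 8.94 and 8.82 on the HA-Fbxl10 arrays. All HA-Fbxl10 arrays lay above all control arrays, a 2.30-fold rise (log2 fold change 1.20 ± 0.08, SE, limma adjusted p = 1.70e-05). Its 2 single-gene probe sets gave log2 fold changes of 1.20 and 1.20, although the related gene Idi2 could share probes with them. Sc5d, the sterol C5 desaturase near the end of the route, read 7.95, 7.82 and 8.02 in control cells and 8.67, 8.76 and 8.68 in HA-Fbxl10 cells. The groups were far apart relative to their spread (0.78 ± 0.07, SE, limma adjusted p = 9.98e-05).

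Cyp51, the demethylase that acts first on lanosterol, read 7.48, 7.69 and 7.78 against 8.35, 8.27 and 8.30. It rose by 1.57-fold (0.65 ± 0.08, SE, limma adjusted p = 0.000593), with control replicate 1 the lowest of its 6 arrays. Fdft1, the squalene synthase that commits farnesyl diphosphate to sterols, read 8.73, 8.84 and 8.65 against 9.17, 9.32 and 9.38. Its 2 probe sets gave log2 fold changes of 0.55 and 0.62, and the gene passed the limma test (adjusted p = 0.00111). Hmgcs1, the cytosolic HMG-CoA synthase, was the tightest of the rising enzymes, at 8.76, 8.75 and 8.78 in control cells and 9.25, 9.24 and 9.22 in HA-Fbxl10 cells, a log2 fold change of 0.47 ± 0.06 (SE).

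The other enzymes that rose had changes of like size. Sqle, the squalene epoxidase, read 8.53, 8.45 and 8.50 against 8.81, 9.01 and 8.97, a log2 fold change of 0.44 ± 0.07 (SE). Ggps1, which makes the geranylgeranyl diphosphate used for protein prenylation and thus lies on a branch away from sterols, went from 7.49 ± 0.01 to 7.95 ± 0.04 (SD, n = 3 each). Hsd17b7, the 3-ketosteroid reductase of C4 demethylation, went from 6.95 ± 0.06 to 7.40 ± 0.13 (SD, n = 3 each). For these 3 genes the arrays of the groups did not overlap and the limma adjusted p was 0.0024, 0.000622 and 0.0035. Over all genes 36.0% had groups that did not overlap, 17.9% with HA-Fbxl10 higher and 18.1% with it lower. These 3 genes lay above the median level, and the shares for such genes alone were not counted.

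The enzymes of cholesterol synthesis did not rise as a whole. Tm7sf2, a sterol C14 reductase, fell from 5.68, 5.85 and 5.70 to 5.29, 5.29 and 5.50 (-0.39 ± 0.08, SE, limma adjusted p = 0.00881). Pmvk, the phosphomevalonate kinase, fell from 7.43, 7.53 and 7.53 to 7.03, 7.18 and 7.17 (-0.37 ± 0.07, SE, limma adjusted p = 0.00494). In both genes every HA-Fbxl10 array lay below every control array. The 7 enzymes that did not pass included both adjacent kinase and decarboxylase steps, Mvk (0.19) and Mvd (-0.11), and the farnesyl diphosphate synthase Fdps, whose log2 fold change of 0.01 had a 95% interval of -0.15 to 0.17. Lanosterol synthase, Lss, had -0.06 with an interval of -0.24 to 0.11, and the C4 decarboxylase Nsdhl had 0.12 with an interval of -0.05 to 0.29. Ebp, the sterol isomerase, had -0.17 (limma adjusted p = 0.107), and passed after quantile normalisation (-0.20, 0.0463) and with an intensity trend (0.0498) or a robust one (0.0491). Dhcr7, the reductase of the final step, had 0.25. Dhcr7 read 6.53, 6.65 and 6.80 against 6.72, 7.06 and 6.95, so its groups overlapped at HA-Fbxl10 replicate 1, and without that array it passed (0.35, limma adjusted p = 0.0455).

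The promoters of these enzymes were compared with those of other genes, for letters that the factors of this pathway are known to bind. RefSeq windows of 300 bases (250 before and 50 from the start site on, build GRCm38.p6) were found for 29 of the 37 members, and Abcg1, Fdft1, Fdps, Npc1, Scd1, Scd2, Sqle and Stard4 had none in the table. A gene counted when any of its windows held the motif on either strand. The letters CCAAT, the box bound by NF-Y, a known partner of SREBPs on sterol gene promoters, were in the windows of all 14 measured cholesterol synthesis genes that had one. Acat2, which was not measured, had a window without them, so with it the count was 14 of 15. The letters were in 41.7% of 15614 measured genes and in 43.3% of 8060 measured genes above the median level. The box was in 9 of 9 members that rose, 3 of 3 that fell and 10 of 15 that did not pass, so members that rose and members that fell both carried it. It was in 2 of 4 fatty acid synthesis genes and 1 of 4 genes of the LXR arm. The LXR arm count includes Nr1h2, which was not measured and lacked the box. Acat2 and Nr1h2 are in none of the groups by call. The GC box GGGCGG was in 12 of the 14 enzymes against 71.8% of genes above the median level, and the E-box CACGTG in 3 of 14 against 12.4%. The sterol regulatory element core TCACNCCAC was in 1 of 29 members, Hmgcs1, against 1.4% of measured genes. The DR4 element bound by LXRs, AGGTCA repeated after a gap of 4 bases, was in 0 of 29 members. It was in 1 of 15614 measured genes and 0 of 8060 above the median level. Its absence here thus says nothing particular to the members. A match is a description of letters and no match says only that these letters are not in the window.

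The 150 bases before the start site are shown for 4 genes that rose (Hmgcs1 with the sterol element, Idi1 and Sc5d with the largest changes among the enzymes, and the regulator Insig1), for Lss, which did not pass, and for Tm7sf2, which fell. Capitals mark CCAAT read on either strand (ATTGG when reversed), CACGTG and TCACNCCAC, and each sequence reads 5′ to 3′ on the gene's strand. The windows are chr13:119690201-119690350 (plus strand) for Hmgcs1, chr13:8885456-8885605 (plus strand) for Idi1, chr9:42264301-42264450 (minus strand) for Sc5d, chr5:28071262-28071411 (plus strand) for Insig1, chr10:76531455-76531604 (plus strand) for Lss and chr19:6067851-6068000 (minus strand) for Tm7sf2.
Hmgcs1: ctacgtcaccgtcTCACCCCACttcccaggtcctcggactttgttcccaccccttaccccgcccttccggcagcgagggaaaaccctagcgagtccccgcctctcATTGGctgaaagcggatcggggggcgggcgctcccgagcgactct
Idi1: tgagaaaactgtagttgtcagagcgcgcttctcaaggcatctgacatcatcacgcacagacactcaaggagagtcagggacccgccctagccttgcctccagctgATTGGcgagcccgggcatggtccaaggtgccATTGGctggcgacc
Sc5d: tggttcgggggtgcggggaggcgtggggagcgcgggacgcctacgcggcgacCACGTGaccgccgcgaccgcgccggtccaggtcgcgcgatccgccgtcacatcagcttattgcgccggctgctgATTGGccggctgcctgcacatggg
Insig1: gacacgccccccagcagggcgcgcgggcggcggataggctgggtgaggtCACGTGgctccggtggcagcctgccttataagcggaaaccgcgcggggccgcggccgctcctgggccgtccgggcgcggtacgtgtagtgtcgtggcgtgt
Lss: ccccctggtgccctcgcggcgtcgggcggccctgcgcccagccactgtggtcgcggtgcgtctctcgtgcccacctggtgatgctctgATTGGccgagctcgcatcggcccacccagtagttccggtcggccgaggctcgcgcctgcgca
Tm7sf2: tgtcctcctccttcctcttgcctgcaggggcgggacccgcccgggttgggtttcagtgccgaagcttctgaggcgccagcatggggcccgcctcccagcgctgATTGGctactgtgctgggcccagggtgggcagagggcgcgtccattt
The reversed CCAAT box lay at bases -45 to -41 in both Hmgcs1 and Idi1, at -47 to -43 in Tm7sf2, at -62 to -58 in Lss and at -24 to -20 in Sc5d, thus within 62 bases of the start in each. The capitals do not overlap each other. Idi1 held another at -14 to -10. The sterol element of Hmgcs1 lay at -137 to -129. The E-box of Insig1 lay at -101 to -96 and that of Sc5d at -98 to -93.

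**Figure D2:**
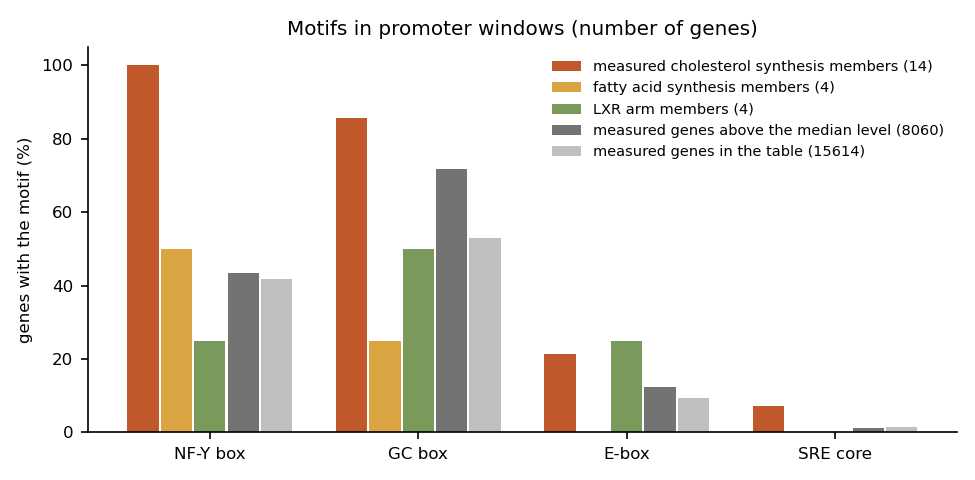
Share of genes (y axis, percent) whose RefSeq promoter windows hold each motif (x axis), for 14 measured cholesterol synthesis genes, 4 fatty acid synthesis genes, 4 LXR arm genes, 8060 measured genes above the median level and 15614 measured genes in all. The NF-Y box is in all 14 measured cholesterol synthesis genes against 43.3% of genes above the median level, while the SRE core is in 1 of these 14. Acat2, not measured, is left out and lacks the NF-Y box. Nr1h2, also not measured and without the NF-Y box, is counted in the LXR arm.

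Among the SREBP regulators Insig1 and Srebf2 rose, Srebf1 fell, and Insig2 and Scap did not pass. Insig1, a direct SREBP target whose product retains the SREBP-Scap complex, read 7.80, 7.78 and 7.95 in control cells and 8.66, 8.68 and 8.73 in HA-Fbxl10 cells. This was a 1.80-fold rise (0.85 ± 0.07, SE, limma adjusted p = 5.09e-05) with no overlap. Insig2, its SREBP-independent paralogue, read 8.66, 8.85 and 8.85 against 8.53, 8.52 and 8.65. Its HA-Fbxl10 arrays lay below the control arrays, but the difference of -0.22 ± 0.08 (SE) did not pass (limma adjusted p = 0.0715), with adjusted p of 0.0198 to 0.189 over the other settings. It passed in 6 of them, without control replicate 1 (-0.28, 0.0400), after quantile normalisation (-0.26, 0.0364), with the dimmest genes left out (0.0478), with an intensity trend (0.0205) or a robust one (0.0198), and with the chromosome median subtracted (-0.27, 0.0405). The difference between the log2 fold changes of the pair was 1.07 ± 0.07 (SE of the within-array differences, not moderated by limma). Its exact permutation p was 0.1, the smallest that 3 against 3 arrays can give.

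Srebf2, which encodes SREBP2, read 8.48, 8.62 and 8.61 in control cells and 8.85, 8.89 and 8.75 in HA-Fbxl10 cells. The groups did not overlap, and the rise of 0.26 ± 0.07 (SE) passed the limma test (adjusted p = 0.0265). The call was lost in 3 limma fits that left out an array, control replicate 1 (0.22, adjusted p = 0.101), HA-Fbxl10 replicate 1 (0.25, 0.0866) and HA-Fbxl10 replicate 2 (0.23, 0.0873), and with the replicate number as a block (adjusted p = 0.0619). Srebf1, which encodes both forms of SREBP1, fell from 7.22, 7.23 and 7.28 to 6.94, 6.95 and 6.82 (-0.34 ± 0.07, SE, limma adjusted p = 0.00503). All HA-Fbxl10 arrays were lower than all control arrays, and the probe set does not say which form changed. The fold changes of Srebf2 and Srebf1 differed by 0.60 ± 0.04 on the log2 scale. This SE is likewise not moderated and cannot be set beside the limma SEs of the single genes. The pair, like the Insig pair and the Scd pair below, had an exact permutation p of 0.1 (also 0.1 when adjusted over the 3 pairs). The pairs were picked with results known. Any pair whose within-array differences do not overlap between groups must give this value, so it does not test the contrast. Scap, the escort of the SREBPs, had a log2 fold change of 0.01 with a 95% interval of -0.13 to 0.14.

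Of the sterol transport genes, Npc2, the lysosomal protein that hands cholesterol to Npc1, rose from 8.92, 8.98 and 8.93 to 9.20, 9.17 and 9.24. The groups did not overlap (0.26 ± 0.06, SE, limma adjusted p = 0.0133), and the call was lost with control replicate 1 left out (0.25, adjusted p = 0.0515) and with HA-Fbxl10 replicate 3 left out (0.24, 0.0524). Npc1, its membrane partner, had a log2 fold change of -0.06 with a 95% interval of -0.20 to 0.08. Stard4, an SREBP2 target that carries cholesterol through the cytosol, read 7.65, 7.81 and 7.68 against 7.99, 7.90 and 8.005. Its rise of 0.25 ± 0.07 (SE, limma adjusted p = 0.0311) was not held by 4 of the 6 fits without an array, namely those without control replicate 1 (0.22, adjusted p = 0.112) or 3 (0.23, 0.0787) and without HA-Fbxl10 replicate 1 (0.24, 0.0968) or 3 (0.23, 0.104). It did not pass with the replicate number as a block either (adjusted p = 0.0829).

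The LXR arm, in which Srebf1 was not counted, gave no change that passed. Abca1, the transporter that lipidates nascent high-density lipoprotein, had mean levels of 3.72 in control cells and 3.81 in HA-Fbxl10 cells, close to the lower quartile of all genes, where signal and background are hard to separate. Abcg1, another sterol efflux transporter, read 5.31, 5.42 and 5.01 against 5.11, 4.81 and 4.95, so the groups overlapped at control replicate 3. Its difference of -0.29 ± 0.11 (SE) did not pass (limma adjusted p = 0.115), but without that array it did (-0.40, 0.0185). Nr1h3, which encodes LXR alpha, lay below the median level of all genes (4.79 ± 0.07 and 4.90 ± 0.02, SD, n = 3 each), with a log2 fold change of 0.11 and a 95% interval of -0.03 to 0.26. Mylip, the LXR-induced ubiquitin ligase of lipoprotein receptors, read 7.32, 7.28 and 7.39 against 7.47, 7.44 and 7.65. Its HA-Fbxl10 arrays were all higher, yet the difference of 0.19 ± 0.07 (SE) did not pass (limma adjusted p = 0.114).

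Among the fatty acid synthesis genes Scd2, a stearoyl-CoA desaturase, was the 1 that passed. It fell from 10.90, 11.02 and 11.02 to 10.50, 10.69 and 10.51 without overlap (-0.41 ± 0.08, SE, limma adjusted p = 0.00431). Its paralogue Scd1 had a log2 fold change of 0.11 with a 95% interval of -0.05 to 0.27. The pair's fold changes differed by 0.52 ± 0.09 (SE, not moderated), although closely related copies may share probes. Fasn, the fatty acid synthase, read 8.40, 8.45 and 8.63 against 8.50, 8.48 and 8.51, so its HA-Fbxl10 arrays sat inside the control range (0.01, 95% interval -0.16 to 0.17). Acly, which supplies cytosolic acetyl-CoA, had -0.14 ± 0.06 and Acaca, the acetyl-CoA carboxylase, had 0.21 ± 0.10 (SE), and neither passed, although Acaca did with the chromosome median subtracted (0.34, limma adjusted p = 0.0452). Elovl6, the elongase of palmitate, read 8.71, 8.68 and 8.92 against 8.96, 8.98 and 8.98, and its difference of 0.20 ± 0.08 (SE) did not pass (limma adjusted p = 0.0961). It passed without control replicate 3 (0.28, limma adjusted p = 0.0210), with an intensity trend (0.0292) or a robust one (0.0282), with array weights (0.22, 0.0499) and with the chromosome median subtracted (0.43, 0.00402).

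**Figure D3:**
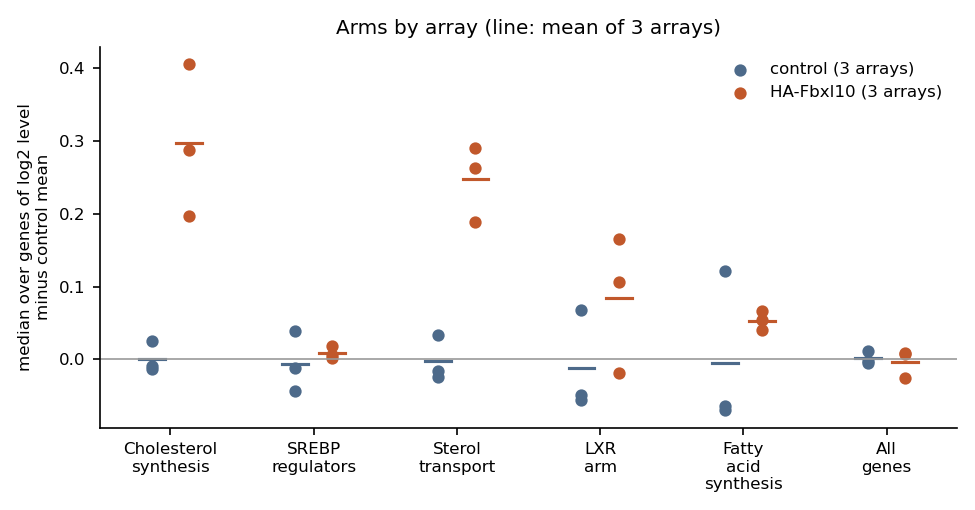
Median over the measured members of each arm (x axis) of the log2 level minus the gene's control mean (y axis), 1 point per array, with a line at the mean of the 3 arrays of a group. For cholesterol synthesis the HA-Fbxl10 arrays lie at 0.20 to 0.41 and the control arrays at -0.01 to 0.03, while for the fatty acid arm the HA-Fbxl10 arrays (0.04 to 0.07) lie inside the control range (-0.07 to 0.12).

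Across arrays the arms moved to different extents. The median cholesterol synthesis gene stood 0.20, 0.41 and 0.29 above its control mean on HA-Fbxl10 replicates 1, 2 and 3. For sterol transport these values were 0.26, 0.19 and 0.29. The LXR arm gave -0.02, 0.11 and 0.17, which overlapped its control arrays (-0.06 to 0.07). The fatty acid arm gave 0.04, 0.05 and 0.07 within a control range set by replicate 3 (0.12), which was high for Fasn, Acaca, Scd1 and Elovl6 alike. These medians are descriptions of the arms with no test.

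Other genes of the routes were measured from lists of related genes. Of 4 other cholesterol synthesis genes measured, 2 rose and 2 did not pass. Msmo1, the C4 sterol methyl oxidase, went from 10.34 ± 0.06 to 11.12 ± 0.06 (SD, n = 3 each), a log2 fold change of 0.78 ± 0.07 (SE, limma adjusted p = 5.90e-05). Lbr, the lamin B receptor, which has the same C14 reductase activity as Tm7sf2, rose by 0.46 ± 0.07 (SE, limma adjusted p = 0.00112) where Tm7sf2 fell. Of 7 genes that process SREBPs or degrade sterol enzymes, such as the protease gene Mbtps1 (0.14), limma called 0, and 1 had an unadjusted p below 0.05.

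Of 14 other fatty acid and lipid synthesis genes 3 rose and 2 fell. Mid1ip1, an activator of acetyl-CoA carboxylase, rose by 0.56 ± 0.06 (SE) and Me1, the malic enzyme that supplies NADPH, by 0.45 ± 0.06 on the log2 scale. Elovl7, an elongase of long-chain fatty acids, fell from 6.02 ± 0.18 to 3.80 ± 0.11 (SD, n = 3 each), and since the lower level is near the lower quartile of all genes, its 4.68-fold change is best read as a lower bound. Acss2, the cytosolic acetyl-CoA synthetase and an SREBP target, fell by 0.36 ± 0.06. Other LXR targets and partners had a median log2 fold change of -0.17, with 1 of 6 positive, against 0.10 for the LXR arm. Of these 6 genes 2 fell and 0 rose. They were the phospholipid transfer protein gene Pltp (8.41, 8.33 and 8.41 against 7.81, 7.82 and 7.81, a log2 fold change of -0.57 ± 0.06, SE, limma adjusted p = 0.000215) and the lysophospholipid acyltransferase gene Lpcat3 (-0.37 ± 0.06, SE, limma adjusted p = 0.00207).

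Of 13 other sterol uptake and storage genes 2 rose and 3 fell. The lipoprotein receptor genes Lrp8 (0.66 ± 0.06, SE) and Scarb1 (0.35 ± 0.06) rose, and Vldlr fell from 6.17 ± 0.28 to 4.39 ± 0.13 (SD, n = 3 each), a log2 fold change of -1.78 ± 0.13 (SE). Stard3, a late endosomal sterol carrier, fell by 0.31 ± 0.08, with an adjusted p of 0.0175 to 0.0981 over the limma fits that left out 1 array each. Over these 5 lists 7 of 44 measured genes rose and 7 fell, 31.8% in all. Of the 44 genes 34 lay above the median level, where 19.2% of all genes rose and 17.8% fell.

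Each member was set beside its neighbours, the 16 to 30 genes above the median level nearest to it in the RefSeq order. Among all genes above that level, the neighbours' median log2 fold change was positive for 82.8% of the 1914 called higher, negative for 74.5% of the 1775 called lower, and positive for 54.6% of the 6267 that did not pass. Neighbouring genes enter these shares together, so they are descriptions with no test. Pmvk fell no further than its neighbours on chromosome 3, whose median log2 fold change was -0.39, with 24 of 30 lower. Fdps, on the same chromosome, had neighbours with a median of -0.36, 22 of 30 of them lower, while its own change was 0.01. Idi1, Ggps1 and Hmgcs1 lie on chromosome 13 among neighbours with medians of 0.32, 0.27 and 0.16, and Sc5d on chromosome 9 among neighbours with a median of 0.25. Idi1 thus stood 0.88 above its neighbours, Sc5d 0.52, Hmgcs1 0.31 and Ggps1 0.20. Cyp51 and Insig1, on chromosome 5, stood 0.53 and 0.68 above theirs. All 4 members that fell had neighbours with a negative median (-0.15 for Srebf1, -0.16 for Tm7sf2, -0.14 for Scd2), and 10 of the 12 that rose had neighbours with a positive median, shares near those over all genes for the rises. Of the 19 members that did not pass 10 had neighbours with a positive median and 9 with a negative one. For Srebf2 and Npc2, the 2 others, the neighbours' medians were -0.05 and -0.05.

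With the neighbours' median subtracted from each expressed gene, 14 members rose and 2 fell, where 7.63% of all genes were higher and 8.73% lower. These shares include the genes below the median level, which were not shifted, while 32 of the 35 members lay above it. The shares for genes above that level were not counted in this setting, so the 14 rises have no matched share. Of the 12 rises 10 were kept. Ggps1 (0.20, limma adjusted p = 0.0539) and Stard4 (0.18, 0.121) did not pass. Fdps (0.37, limma adjusted p = 0.00693), Nsdhl (0.29, 0.0300), Fasn (0.32, 0.0176) and Scd1 (0.26, 0.0324) were added. Of the 4 falls only Scd2 was kept (-0.27, limma adjusted p = 0.0377), while Pmvk (0.03, 0.864), Tm7sf2 (-0.22, 0.108) and Srebf1 (-0.19, 0.0775) did not pass and Scap (-0.21, 0.0426) was added. In the cholesterol synthesis arm the count went from 8 higher and 2 lower to 9 higher and 0 lower. The fatty acid arm went from 0 higher and 1 lower to 2 higher and 1 lower, with Fasn, Acaca and Acly on chromosome 11 among neighbours with medians of -0.31, -0.11 and -0.14. The cause of the neighbours' medians was not tested.

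**Figure D4:**
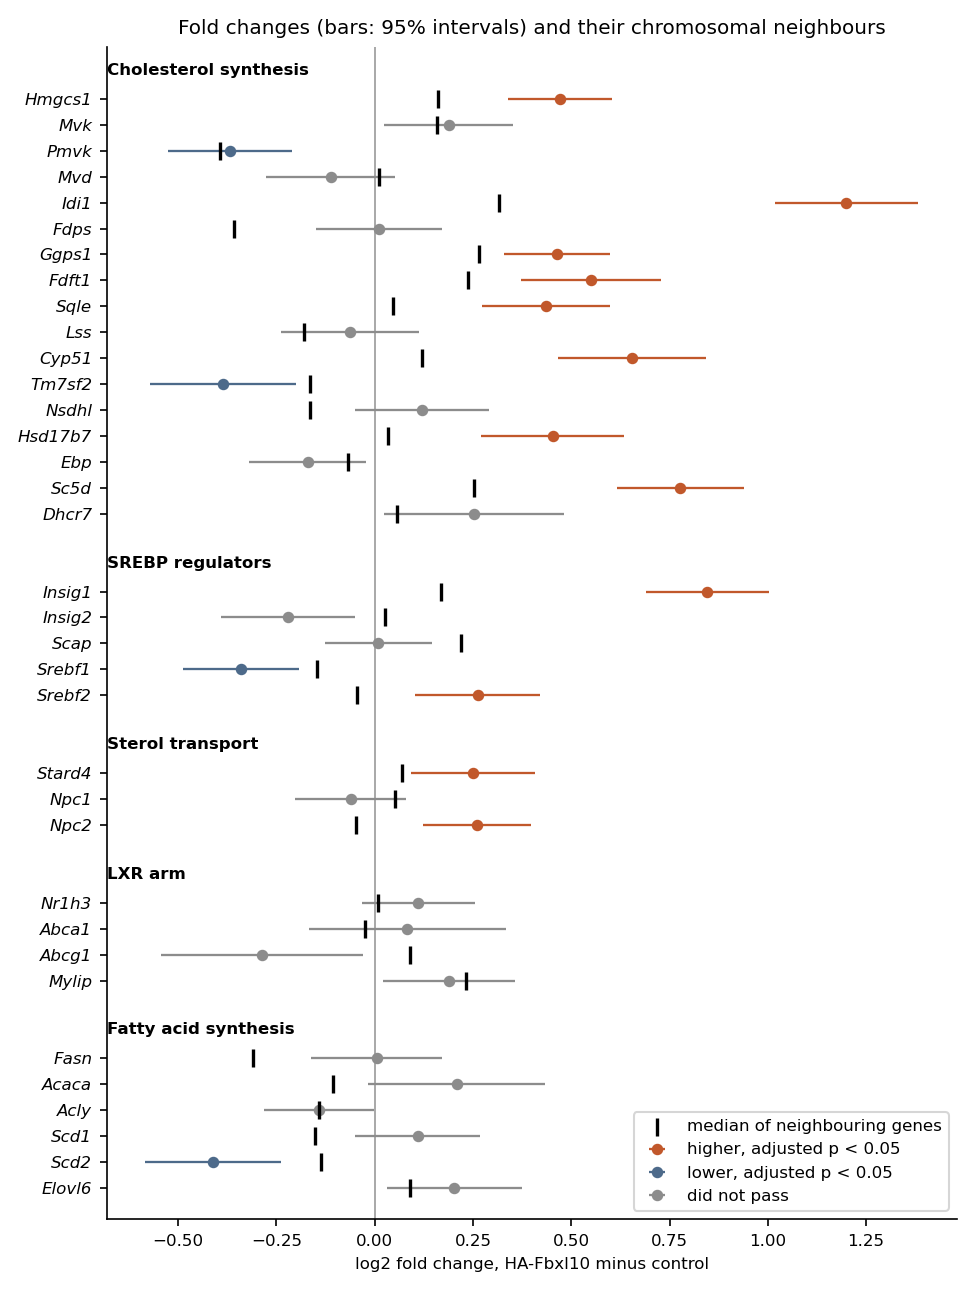
Log2 fold change of each measured member (x axis, HA-Fbxl10 minus control, points, with 95% intervals from limma as bars) beside the median log2 fold change of its expressed neighbours on the chromosome (black ticks). Orange and blue points passed an adjusted p of 0.05 as higher and lower; Pmvk lies on its neighbours' median while Idi1, Insig1, Cyp51 and Sc5d lie well to the right of theirs.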

How the data were processed

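Total RNA of 6 samples (300 ng per array, per the labels' protocols) was hybridised to Affymetrix arrays. The deposited table holds log2 expression values for each probe set. RMA is named in the submitters' processing notes, with version, settings and build not given in the sources used here. RMA equalises the arrays' distributions and compresses low values, and the table holds no detection calls or scan dates, so no batch term could be fitted. A single gene was named by 21789 of 35556 probe sets. Symbols were updated through the RefSeq table of GRCm38.p6, which also gave gene order, and the highest-mean probe set was kept for each of 19936 genes. The test was limma's moderated one (version 3.58.1, R 4.3.3, two-sided, Benjamini-Hochberg over all genes, threshold 0.05), with no filter. The number of arrays limits the precision.

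Replicate numbers are shared by the groups, and the labels do not say whether a number pairs arrays. Same-numbered deviations from the group means correlated at 0.14, -0.31 and -0.04. So few values showed no clear pairing but cannot exclude one. Neighbour medians used a window of 31 genes above the median level, without the gene itself, and were subtracted as if free of error. The comparison of HA-Fbxl10 with control was tested on simulated data of 19936 genes. The changed genes were drawn from those above the median level. They were 67 with a log2 change of 0.5, 67 with 1 and 66 with 2. The test recovered 74.6%, 97.0% and 100% of these, with 3 false calls among 184. In the measured data 21.1% of all genes passed. Recovery with so large a share of changed genes was not tested, nor was the number of false calls. The members, arms, related lists, pairs, promoter letters and other settings were chosen with earlier results of these data known. All members were named, Kdm2b was named as the check of the labels, and of the related lists the text names up to the 2 largest changes in each direction among those that passed; Mbtps1 was named after its values were seen. Figures were drawn with matplotlib 3.10.9.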

Additional observations from a re-analysis of the deposited data

How the results depend on the processing

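At an adjusted p of 0.01, 1227 genes were higher and 1309 lower in place of 2097 and 2111. With array medians subtracted, 2433 were higher and 1700 lower. Members counted higher ran from 9 to 12 without 1 array each and from 9 to 15 over the other settings, and those lower from 4 to 5 and from 2 (running median of neighbours subtracted) to 6. The replicate block kept 10 of 12 rises (Srebf2 and Stard4 did not pass) and 4 of 4 falls, which left 1 rise among the regulators and 1 in sterol transport, with 1667 genes higher and 1730 lower, and 2 of 6 arrays correlated best with their own number. The median of cholesterol synthesis ran from 0.18 to 0.35 without 1 array each. That of the regulators, near 0, was -0.0041 after quantile normalisation, 0.0479 with array medians subtracted, -0.19 with the running median of neighbours, -0.21 with the chromosome median and -0.0141 to 0.0246 without 1 array each. With the running median of neighbours, sterol transport had 0.18, the LXR arm 0.0205 and fatty acid synthesis 0.19, and the latter had 0.18 with the chromosome median and 0.0112 after quantile normalisation. The sign of 7 members turned under some setting. Quantile normalisation gave Fdps -0.0020, Scap -0.0041 and Fasn -0.0417. The running median of neighbours gave Pmvk 0.0263, Lss 0.12, Scap -0.21, Mylip -0.0424 and Acly 0.000213, and the chromosome median gave Lss 0.0470, Scap -0.21 and Mylip -0.0146. Without 1 array each, Fdps ran from -0.0430 to 0.0546, Scap from -0.0141 to 0.0246 and Fasn from -0.0392 to 0.0725. At an adjusted p of 0.01 sterol transport had 0 rises and the regulators 1. With the chromosome median 12 of 12 rises and 1 of 4 falls were kept. The cause of these changes was not tested beyond the subtraction itself. Signal near background limits Abca1, and 3 arrays a group limit all values.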

Other observations

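The product of Kdm2b binds unmethylated CG pairs, so these were counted in the promoter windows (the window with most pairs for genes with several). The 29 members with a window had a median of 21 CG pairs, against 16 over all measured genes and 23 over measured genes above the median level. The 9 members that rose had a median of 27 (9 to 38), the 3 that fell 16 (15 to 36) and the 15 that did not pass 21 (1 to 39), so the ranges overlapped. Acat2 and Nr1h2, which were not measured, are among the 29 but in none of these groups. Idi1, with the largest rise, had 9 pairs, the fewest of the 9, while Insig1 had 38 and Sc5d 36. No test was made of these counts.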
